A study of Mus musculus with 2 samples.

Results

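Deep layer neocortex was examined in 300 spots of 2 coronal mouse brain sections, 150 of 4152 in a section labelled trained and 150 of 3738 in a section labelled untrained. In the method used, Visium, a slide carries a grid of barcoded spots, and each spot captures the RNA of the small region of tissue above it, which can hold several cells of different types. The spots were chosen by a score computed from the counts themselves. Each count is a unique molecular identifier (UMI), a tag that marks a captured RNA molecule once. The score of a spot was the mean of ln(1 + UMIs of the gene per 10000 UMIs of the spot) over 6 genes taken as markers of deep cortical layers (Tbr1, Fezf2, Hs3st2, Myl4, Trbc2 and Igfbp6) minus the same mean over 3 genes of upper layers (Cux2, Rasgrf2 and Lamp5). The 150 highest scores among spots with at least 2000 UMIs were taken in each section. They are called the member spots below, and the other spots with at least 2000 UMIs, 3501 in the trained and 3372 in the untrained section, are called the rest.

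The neocortex is a sheet of layers whose neurons differ in birth date, in gene expression and in the targets of their axons. The deep layers send the cortical output: layer 5 holds the large pyramidal neurons that project to the brainstem, spinal cord and striatum, layer 6 holds corticothalamic neurons that project back to the thalamus, and layer 6b, a thin sheet just above the white matter, holds survivors of the embryonic subplate. The transcription factors Fezf2 and Tbr1 act in separating these fates, Fezf2 in neurons that project below the cortex and Tbr1 in layer 6 neurons.

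Both mice were adult males on a C57BL/6 background with the genotype ArcCreERT2::eYFPflx, in which the promoter of the activity gene Arc drives an inducible Cre recombinase that can switch on a yellow fluorescent reporter. Both groups carried these alleles. The trained mouse had learned active place avoidance, a task on a rotating arena with a shock zone, and the untrained mouse had been placed on the same arena with the shock off. Brains were frozen after a retention test, and 1 section containing the dorsal hippocampus was profiled per mouse. With 1 section per group, mouse, section plane, library and training cannot be told apart, no difference has a replicate check, and no test was run. Intervals given below are 95% intervals that cover counting error only. Directions follow the labels as deposited, and whether these labels match the animals described in the text of the study was not tested.

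The member spots were unequal in depth between the sections and against the rest. They held a median of 11617.5 UMIs (2260 to 28811) in the trained section and 14558 (2015 to 47602) in the untrained section, where the rest held medians of 6527 and 14381. Pooled over the 150 spots, the members carried 1794127 and 2447288 UMIs. A further 501 and 216 spots had fewer than 2000 UMIs and were not scored for membership. The sections shared 3448 of their spot barcodes, because a barcode names a position on the array, and 20 of the shared barcodes were members in both.

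The 6 added genes set the choice, so their values describe the members and support nothing. Tbr1, a T-box transcription factor, stood at 244 CPM (UMIs of the gene scaled to a common total of 1000000 UMIs) in the members and 46.7 CPM in the rest of the trained section, and at 188 and 35.1 CPM in the untrained section. Fezf2, a zinc finger transcription factor, stood at 63.5 against 12.8 CPM and 52.7 against 14.4 CPM. Trbc2, which encodes a constant region of the T-cell receptor beta chain, reached 213 against 20.5 CPM and 146 against 14.1 CPM. These 3 genes were thus all higher in the members of both sections, as the rule favours, and so were Hs3st2, Myl4 and Igfbp6. The subtracted gene Cux2, a homeodomain factor of upper layer neurons, stood at 1.67 against 23.1 CPM and at 6.54 against 21.4 CPM. All 6 added genes were detected in 37 trained and 41 untrained members, and none of the 3 subtracted genes in 83 and 66. When every spot was thinned to 2000 UMIs, Tbr1 was detected in 42.7% of the members and 6.40% of the rest in the trained section, and in 31.3% and 4.98% in the untrained section.

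The score ran without a gap across the threshold. The lowest member scored 0.455 and the highest spot outside 0.454 in the trained section, and 0.324 and 0.323 in the untrained section. Within 0.05 of the threshold lay 20 members and 21 other spots in the trained section and 32 members and 41 other spots in the untrained section, so membership near the edge was decided by small differences.

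Each added gene could be read in spots that it had not helped to choose, by choosing 150 spots with the other 5 genes. So chosen, the spots held Trbc2 at 193 CPM against 22.4 CPM in the trained section, a log2 ratio of 3.11, and at 127 against 15.2 CPM in the untrained section, a log2 ratio of 3.06. Tbr1 gave log2 ratios of 2.19 and 2.09. Fezf2 gave 1.93 and 1.41, and Igfbp6, which binds insulin-like growth factors, 1.40 and 1.45. For Hs3st2, a heparan sulfate sulfotransferase, they were 2.81 and 2.64, and for Myl4, a myosin light chain, 2.94 and 2.61. All 6 left-out genes were higher in the spots chosen by the others, in both sections, with Igfbp6 lowest in the trained and Fezf2 lowest in the untrained section. Of the 150 spots so chosen, 124 to 138 were also members. The 6 genes were taken as a set with earlier results of these data known, so these values are a description as well.

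Position on the array was not used by the rule, and the members lay together. Of the array places next to a trained member, 38.6% (exact binomial interval 35.4 to 41.9) were themselves members, where members made up 3.61% of all spots, and in the untrained section 40.7% (37.3 to 44.0) against 4.01%. With the score computed after thinning to 2000 UMIs these shares were 25.6% and 21.6%. Neighbouring places share spots, so these intervals are too narrow. The members formed 35 patches in the trained section, the largest of 49 spots, and 31 in the untrained section, the largest of 32, and they lay on both sides of the midline (the middle of the widest gap between columns of members), 81 left and 69 right in the trained and 75 and 75 in the untrained section. Standing alone, with no member next to them, were 24 and 18 members. The map of the members shows an arc in each hemisphere, with stray spots scattered above and below it.

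**Figure D1:**
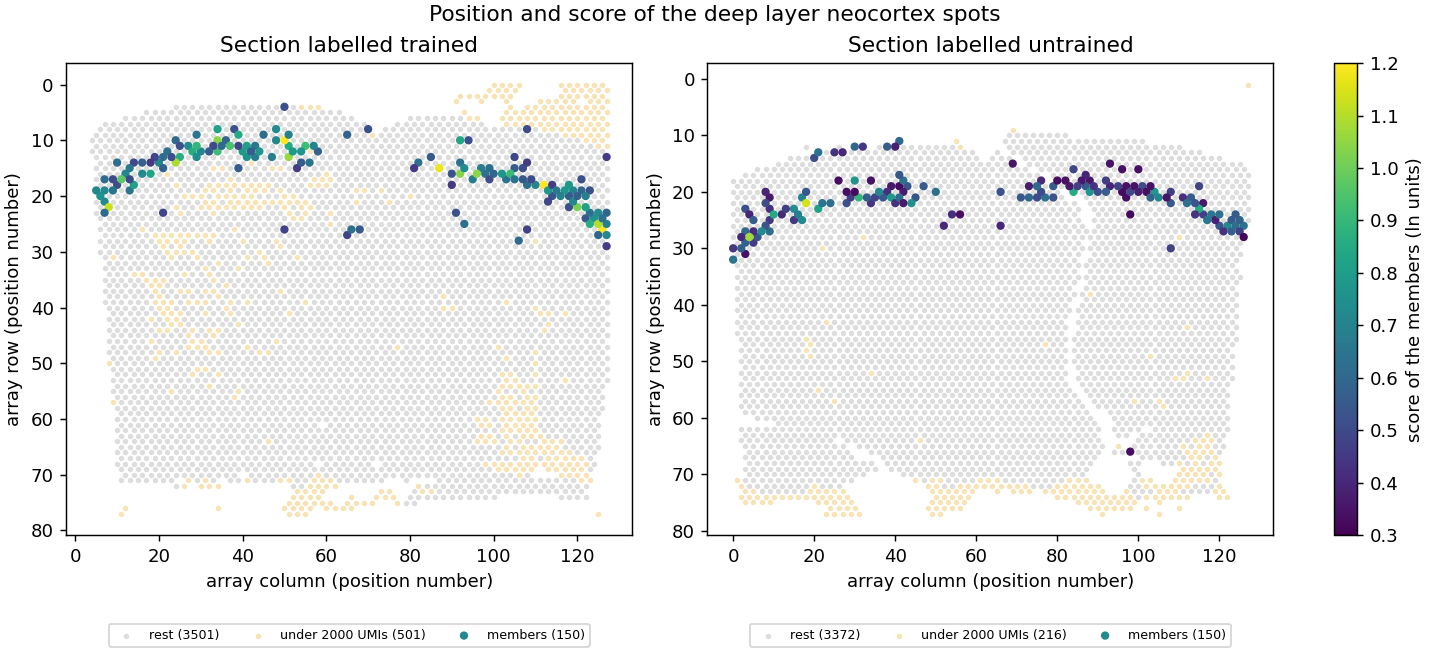
Array positions of all spots of both sections, with columns and rows of the array as axes; member spots are coloured by their score, spots with fewer than 2000 UMIs are cream and the rest are grey. In both sections the members trace an arc on each side of the midline, and 24 trained and 18 untrained members have no member beside them.

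The depth at which each gene peaked was read from all spots, members or not, lying above and below the arc. Spots were grouped in steps of 2 array rows from the centre of the arc within windows of 8 columns, so that negative offsets point to the brain surface. At the centre lay 91 trained and 104 untrained spots, of which 57 and 67 were members. The highest step of each gene was sought from 10 rows above to 4 rows below the centre, and for some listed genes it rested on fewer than 20 UMIs. The window held more steps above than below the centre: of 10512 genes with at least 200 UMIs per section, 43.1% were highest above it in both sections, 1.28% at it and 18.6% below it. Of 18 layer 5 genes, 14 were highest above the centre in both sections, 9 of them on fewer than 20 UMIs in a section, and 2, Bcl11b and Lypd1, below it. Etv1, Parm1 and Rbp4 were highest 2 rows toward the surface. Etv1, an ETS transcription factor, stood there at 170.2 CPM against 52.5 CPM at the centre of the trained section, and at 116 against 50.4 CPM in the untrained section. The rule gene Fezf2 also had its highest level 2 rows above the centre, at 77.3 and 73.6 CPM, against 53.4 and 42.9 CPM at the centre. The rule gene Igfbp6 did not follow the depth of the members: it was highest 8 rows above the centre in the trained and 6 rows above it in the untrained section, at 256 and 218 CPM, against 179 and 146 CPM at the centre, and in the lowest scoring spots it stood at 149 CPM in both sections. Rbp4, a retinol carrier used as a layer 5 marker, was nearly level over both positions, with 67.7 and 64.0 CPM in the trained and 50.1 and 43.9 CPM in the untrained section.

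The 12 corticothalamic genes were mostly highest at the centre or in the rows below it. Rprm, Syt6 and Garnl3 were highest at the centre in both sections, 6 were highest below it in both (Foxp2, Hs3st4, Nxph3, Thsd7b, Zfpm2 and Crym), and 3 differed between the sections. Crym, Bcl11b and Lypd1 were highest 4 rows below the centre, a step in which the summed CA1 list of the hippocampus stood at 493 and 729 CPM, against 47.6 and 107 CPM at the centre. Rprm, a mediator of cell cycle arrest known as a marker of layer 6, reached 247 CPM at the centre, 219.9 CPM 2 rows below and 99.6 CPM 2 rows above in the trained section, and 139, 125 and 63.4 CPM in the untrained section. Syt6, a synaptotagmin, had its highest level there too, at 34.5 and 35.9 CPM. Nxph3 was highest 2 rows below, at 124 and 72.9 CPM. Of 8 layer 6b genes 5 were highest below the centre in both sections, Ccn2, Cplx3, Moxd1, Nxph4 and Tmem163, while Trp53i11 was highest above it in both, and the positions of Moxd1, Nxph4 and Trp53i11, like that of Thsd7b, rested on fewer than 20 UMIs in a section. Ccn2, a secreted matrix-associated protein, stood at 25.5 CPM at the centre and 125 CPM below it in the trained section, and at 25.2 and 93.8 CPM in the untrained section. Cplx3, a complexin that regulates vesicle fusion, had 43.5 and 194 CPM at these positions in the trained and 50.9 and 141 CPM in the untrained section. In the same rows the myelin gene Mbp stood at 6746 and 7953 CPM, against 2103 and 2947 CPM at the centre. Summed over the lists, layer 5 was highest 2 rows above the centre and layer 6b 2 rows below it in both sections, and the corticothalamic list 2 rows below it in the trained section, at 892 CPM, and at the centre in the untrained section, at 672 CPM. In the step 2 rows above the centre, most UMIs of the layer 5 sum were those of Pcp4, which by itself was highest 2 rows below the centre in the trained section, at 3360.4 CPM, and 2 rows above it in the untrained section, at 2325 CPM. Counting intervals of the centre and the step next to it overlapped for Rbp4 above the centre, for Rprm and Syt6 below it and, in the trained section, for Fezf2 above it and Tbr1 below it.

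**Figure D2:**
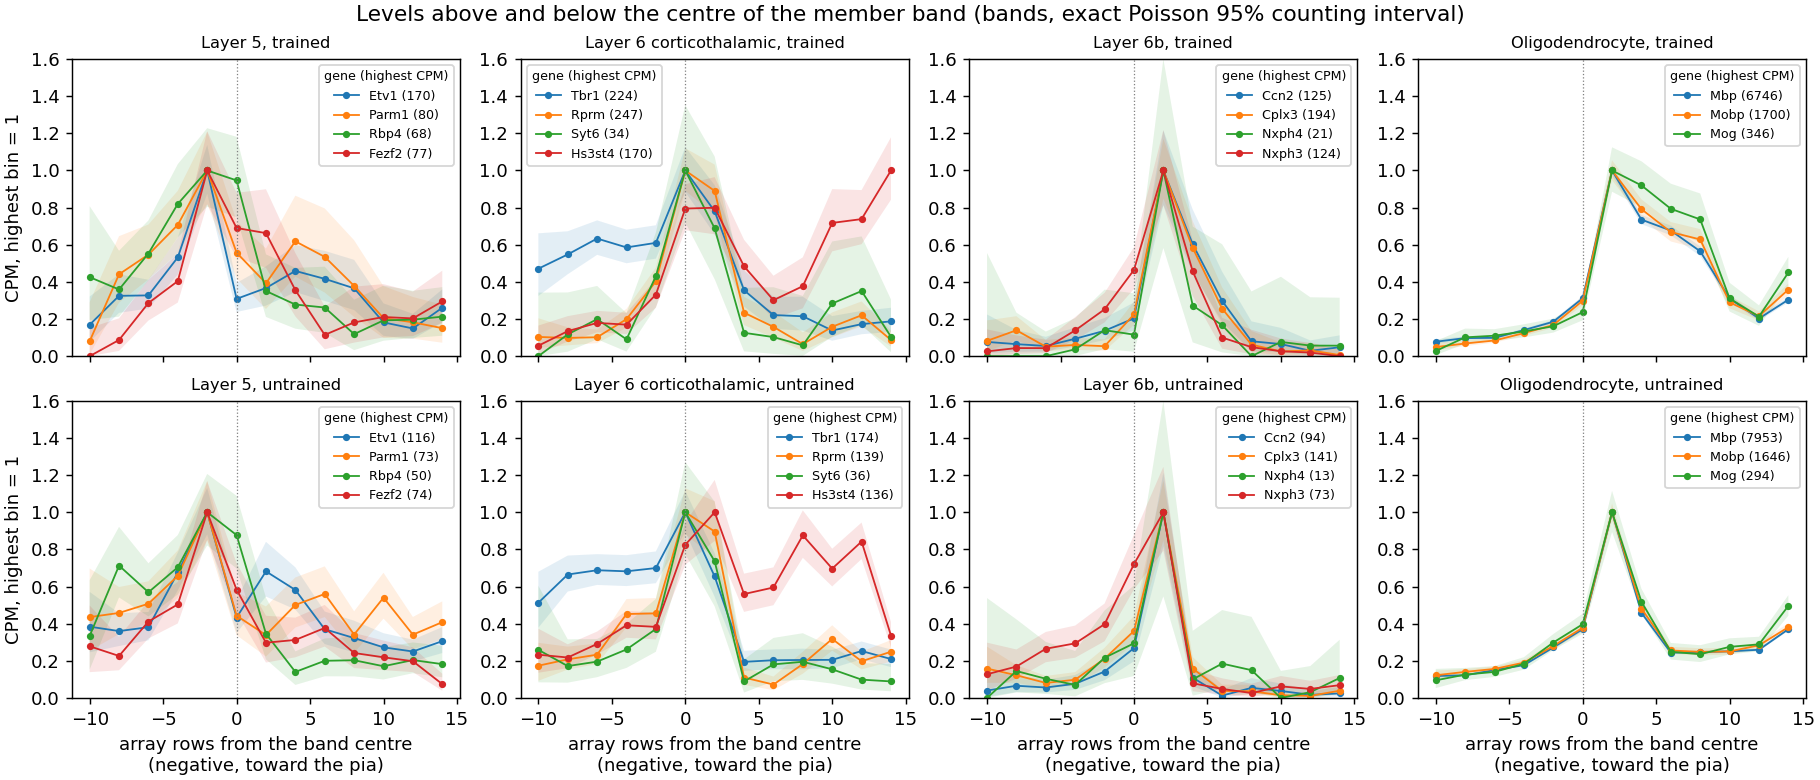
Level of each gene (CPM, scaled so that its highest step is 1) against array rows from the centre of the member arc, negative toward the brain surface; the upper panels show the trained and the lower panels the untrained section, bands are exact Poisson 95% counting intervals and the key gives each gene's highest CPM. Etv1, Parm1, Rbp4 and the rule gene Fezf2 peak 2 rows above the centre, and Rprm, Syt6 and the rule gene Tbr1 at the centre. Nxph3 and the drawn layer 6b and oligodendrocyte genes peak 2 rows below it, while Hs3st4 has a further high stretch deeper in the tissue. The centre was set from members chosen with Tbr1 and Fezf2, so the positions of these 2 genes are a description.

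Against the rest of their own section, the leading genes of the members included genes of the corticothalamic, immediate early and layer 6b lists. Of 10512 genes with at least 200 UMIs per section, 149 (1.42%) were at least 2-fold higher in the trained members and 142 (1.35%) in the untrained members, 99 (0.942%) of them in both. At least 2-fold lower were 467 (4.44%) and 407 (3.87%), with 240 (2.28%) in both, and no gene was 2-fold higher in one section and 2-fold lower in the other. The median log2 ratio over all genes was -0.01 in the trained and -0.02 in the untrained section. The members were chosen from the same counts, so these numbers are a description. With the rest matched to the members in depth, 52 genes were 2-fold higher in both sections. In tissue spots, a lower share of a cell type and less RNA per cell of that type cannot be told apart.

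With the rule genes left out of the ranks, the gene leading by the weaker section was Ighm, which encodes the constant region of the immunoglobulin M heavy chain (ENSMUSG00000076617, GRCm38/mm10 chr12:113418558-113422730, minus strand). It stood at 164 CPM in the members and 17.1 CPM in the rest of the trained section, and at 145 and 15.7 CPM in the untrained section. The log2 ratios were 3.26 (3.05 to 3.48) and 3.21 (3.03 to 3.39). After thinning to 2000 UMIs it was detected in 21.3% (15.1 to 28.8) of the trained members and 3.08% of the rest, and in 28.7% (21.6 to 36.6) of the untrained members and 2.76% of the rest. Like Trbc2, Ighm is by name a lymphocyte gene, and defining lymphocyte genes, looked up after its value had been seen, were at or near 0 in the same spots. The B-cell gene Ms4a1 and the T-cell genes Cd3d, Cd3e, Cd3g and Cd8a had 0 UMIs in the 300 members, with exact Poisson upper bounds of 2.06 CPM in the trained and 1.51 CPM in the untrained section, the B-cell receptor gene Cd79a had 2 UMIs in the trained and 1 in the untrained members, and the leukocyte gene Ptprc had 2 and 4. Trbc1, the other constant region of the receptor beta chain, also had 0 UMIs, while Trac, the constant region of the alpha chain, had 3 in each section, Jchain 3 and 0, Igkc 0 and 2 and Cd4 0 and 1. In the rest, Ms4a1, Cd3d, Cd3e, Cd3g and Cd8a had at most 5 UMIs in the trained and 6 in the untrained section. Their 0 in the members therefore cannot show whether lymphocytes were there. Trac had 51 and 212 UMIs in the rest, and Igkc 96 and 240. The protein products of all these transcripts were not measured. Over all spots of a section, the deposited score of spatial clustering (Moran's I, 0 for no pattern) of Ighm was 0.204 in the trained and 0.253 in the untrained section.

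Next came 2 layer 6b genes, Cplx3 and Ccn2, in a list whose median was -0.09 in the trained and -0.32 in the untrained section, and genes of corticothalamic neurons. Cplx3 (chr9:57599992-57606281) stood at 90.9 against 17.3 CPM in the trained section and 68.2 against 9.83 CPM in the untrained section, log2 ratios of 2.39 (2.13 to 2.65) and 2.80 (2.54 to 3.05). Ccn2 (chr10:24595442-24598683) stood at 55.7 against 12.1 and 40.9 against 5.30 CPM, log2 ratios of 2.21 and 2.95. Both were concentrated in few members: the 10 richest spots held 62.6% and 45.5% of the Cplx3 UMIs and 60.0% and 43.0% of the Ccn2 UMIs. Nxph3, a neurexophilin that binds alpha-neurexins at synapses, had 81.4 against 10.5 CPM and 58.0 against 11.5 CPM, log2 ratios of 2.96 and 2.34. Rprm (chr2:54084093-54085552, 1 exon) had 236 against 36.0 CPM and 133 against 35.6 CPM, so its level in the rest was the same in both sections to within 1 CPM while its level in the members was not. Its log2 ratios were 2.71 (2.55 to 2.88) and 1.90 (1.73 to 2.07). Ccn2 overlaps a gene on the opposite strand.

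Of the 20 leading genes, Arc and Egr1 belonged to the list of immediate early genes. Arc (chr15:74669083-74672570), whose protein acts at synapses and whose promoter drives the Cre of these mice, stood at 265 CPM in the members and 62.6 CPM in the rest of the trained section, and at 246 and 60.0 CPM in the untrained section, log2 ratios of 2.09 (1.93 to 2.23) and 2.04 (1.91 to 2.16). Per spot, Arc had a median of 228 and a highest value of 835 CPM in the trained and 209.6 and 777 CPM in the untrained members. It was detected in 80.7% and 82.0% of the members, and in 40.7% and 40.0% at 2000 UMIs, against 9.25% and 9.58% of the rest at that depth. Arc was thus widespread in the members rather than held by a few spots, with 23.7% and 24.9% of its UMIs in the 10 richest. Egr1, a zinc finger transcription factor induced by activity, stood at 410.2 against 134 CPM and 409.8 against 122 CPM, log2 ratios of 1.61 and 1.75. Ier5, an immediate early response gene, had log2 ratios of 1.67 and 1.81, Klf10, a Krueppel-like transcription factor, 1.70 and 1.73, and Gadd45a, a stress-inducible gene, 1.99 and 1.99.

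The list of 23 immediate early genes, of which 19 had enough UMIs, held 7 genes at least 2-fold higher in the members of both sections, beside the 0.942% of all genes. They were Arc, Egr1, Junb, Fos, Nr4a1, Homer1 and Npas4. Junb, an AP-1 subunit, stood at 64.7 against 24.8 CPM and 99.3 against 38.3 CPM. Fos, its dimer partner, stood at 69.1 against 29.3 and 57.2 against 25.6 CPM. Npas4, a transcription factor induced by calcium influx, was sparse, at 25.6 against 10.02 and 26.6 against 10.4 CPM. One listed gene, the protocadherin Pcdh8, was 2-fold lower in both sections, at 18.4 against 40.7 and 11.4 against 41.9 CPM. Jun, Rheb, Bdnf and Nrn1 lay within 0.6 log2 units of 0 in both sections. The median log2 ratio of the 19 genes was 0.75 in the trained and 0.93 in the untrained section. In the depth profile the summed level of the list was 2374 and 2366 CPM at the centre of the arc and 2403 and 2475 CPM 4 rows toward the surface, so the summed list was not higher in the member rows than in the layers above them. Arc alone was highest at the centre in both sections, at 273 and 270.1 CPM, with another high step 4 rows above, at 191 and 241 CPM, and a lower one between them, at 154 and 160.0 CPM.

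The remaining leading genes had varied roles. Vxn, which encodes vexin, stood at 392 against 93.6 CPM and 381 against 79.3 CPM and was detected in 88.7% and 96.0% of the members. Ttc9b, one of the genes with the most UMIs among the 20, stood at 669 against 194 and 574 against 172 CPM. Sstr2, a receptor for somatostatin, stood at 23.4 against 7.67 and 27.8 against 9.46 CPM, log2 ratios of 1.62 and 1.56. Ipcef1, Gm11549, Dkkl1, Garnl3, Sdk2 and Sowahb were also among the 20, with log2 ratios from 1.58, that of the adhesion molecule Sdk2 in the untrained section, to 2.43, that of Gm11549 in the trained section. Vxn, Ipcef1, Gadd45a, Ttc9b and Sstr2 overlap a gene on the opposite strand.

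**Figure D3:**
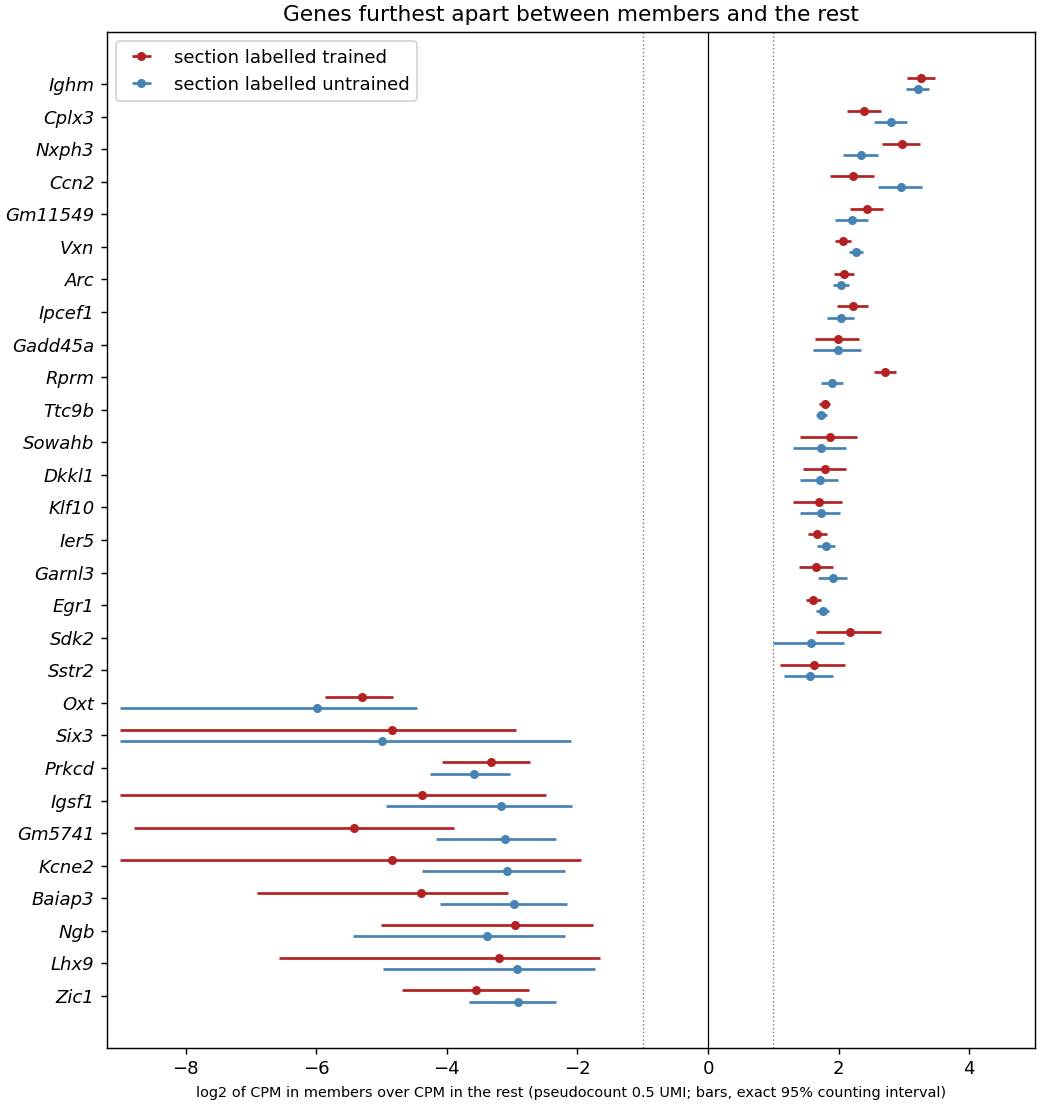
Log2 ratio of members over the rest in the trained and the untrained section for genes among the 20 with the highest ratio and for the 10 with the lowest, ranked by the weaker section; horizontal lines are 95% counting intervals, and those that reach the left edge run beyond it because the members held few or no UMIs. Rule genes are left out, Ighm leads with 3.26 and 3.21, and Oxt, whose untrained ratio turned to 0.49 with the score from thinned spots, Six3 and Prkcd stand lowest.

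The genes lowest in the members included Oxt of the hypothalamus list, Prkcd of the thalamus list and Kcne2 of the choroid plexus list. Oxt, the precursor of the hypothalamic hormone oxytocin, stood at 17.8 CPM in the members and 711 CPM in the rest of the trained section, and at 0.817 and 65.0 CPM in the untrained section. With the score computed after thinning to 2000 UMIs, its log2 ratio in the untrained section turned to 0.49. Prkcd, a protein kinase C isoform abundant in thalamus, stood at 11.1 against 114 CPM and 9.81 against 119.9 CPM, log2 ratios of -3.32 (-4.07 to -2.73) and -3.58 (-4.25 to -3.04). Zic1, a zinc finger factor, stood at 5.57 against 68.6 and 8.17 against 63.2 CPM. The homeobox gene Six3 had 1 UMI in the trained and 0 in the untrained members, and Kcne2, a potassium channel subunit of the choroid plexus, 0 and 8. Igsf1, Gm5741, Baiap3, Ngb and Lhx9 had at most 11 UMIs in the members of a section. All 7 thalamic and all 4 hypothalamic genes with enough UMIs were at least 2-fold lower in both sections, beside 2.28% of all genes, as were 4 of 4 choroid plexus and 3 of 3 dentate gyrus genes. Of the other regional lists, 1 of 3 CA3 genes and 1 of 2 genes of basolateral amygdala and subiculum were 2-fold lower in both sections, and none of 3 CA1, 6 striatal and 4 claustral genes was. Of the striatal genes 5 were 2-fold lower in the trained section alone, with list medians of -1.72 and -0.45. The choroid plexus list stood at 71727 CPM in 1 trained member, where the median member held 360.4 CPM, and the source of this RNA was not tested.

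Among the lists of laminar genes, only the corticothalamic list had most of its compared genes at least 2-fold higher in both sections. The counts stand beside 0.942% of all genes higher and 2.28% lower in both sections. Of the 12 corticothalamic genes, 9 had enough UMIs and 6 were at least 2-fold higher in both sections. The list median was 1.44 in the trained and 1.35 in the untrained section. When the score was computed after thinning every spot to 2000 UMIs, 3 were. Beside Rprm and Nxph3 these were Hs3st4, a heparan sulfate sulfotransferase, at 144 against 53.1 CPM and 127 against 49.9 CPM, Tle4, a Groucho-type corepressor, at 84.7 against 33.0 and 76.8 against 29.5 CPM, Syt6 and Garnl3. Foxp2, a forkhead factor of corticothalamic neurons, was not, at 22.3 against 21.6 CPM and 28.6 against 18.7 CPM. The layer 5 list had 1 gene 2-fold higher in both sections, Rbp4, and 2 lower, Vat1l and Lratd2, of 13, with medians of -0.08 and -0.17. Of 5 layer 6b genes, Ccn2 and Cplx3 were higher and none was lower, with medians of -0.09 and -0.32. None of 3 layer 6 intratelencephalic genes passed 2-fold in both sections, with medians of 0.94 and 0.78. The list for layers 2/3 and 4 had 1 gene higher, the LIM-only factor Lmo4, and 1 lower, the calcium buffer Calb1, of 10, with medians of -0.79 and -0.43. The label deep layer neocortex was thus met by most corticothalamic genes compared and not by the layer 5, layer 6 intratelencephalic and layer 6b lists, in which most genes did not differ 2-fold from the rest.

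No gene of 10 forebrain excitatory genes passed 2-fold in both sections, with list medians of 0.70 and 0.87 over the rest. In the trained section alone 3 were 2-fold higher, beside 1.42% of all genes. Against the lowest scoring spots the list medians were -0.03 and -0.02, so the higher medians held against the rest and not against those spots. Slc17a7, the vesicular glutamate transporter of cortical neurons, stood at 934 against 333 CPM and 797 against 433 CPM. Among transcription factors of cortical identity the homeobox gene Emx1 was 2-fold higher in both sections, at 24.0 against 10.5 CPM and 16.3 against 7.89 CPM, and the neurogenic factor Neurod1 2-fold lower, at 2.23 against 12.5 and 6.95 against 15.4 CPM. Of 12 inhibitory neuron genes 4 were 2-fold lower in the trained section and 3 were 2-fold higher in the untrained section, beside 4.44% and 1.35% of all genes, with medians of -0.73 and 0.14. Only Cort, which encodes the peptide cortistatin, was 2-fold higher in both, beside 0.942% of all genes, at 41.2 against 19.5 and 53.9 against 16.7 CPM. The 8 oligodendrocyte genes had none past 2-fold and medians of -0.63 and -0.12, with a summed level of 5312 and 6192 CPM in the members. Of 7 astrocyte genes 3 were 2-fold lower in both sections, beside 2.28% of all genes, the water channel Aqp4, the intermediate filament Gfap and the angiotensin precursor Agt, the last at 11.1 against 83.9 and 15.9 against 122 CPM. No gene of 8 microglial, 6 endothelial and 13 mitochondrially encoded genes passed 2-fold in both sections, and of 3 meningeal genes Igf2 was lower in both.

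**Figure D4:**
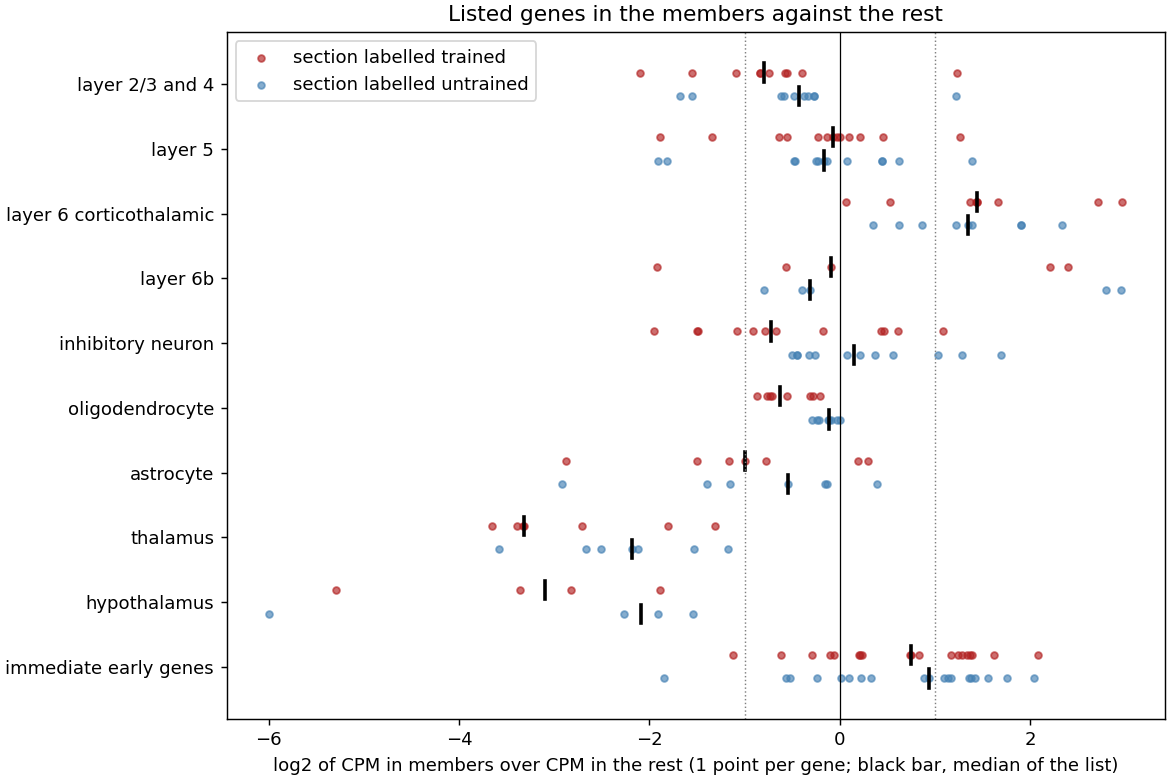
Log2 ratio of members over the rest for the genes of each list with enough UMIs, in the trained and the untrained section, with the list median marked. The corticothalamic median stands at 1.44 and 1.35 and the immediate early gene median at 0.75 and 0.93, and the thalamus and hypothalamus genes lie below -1.

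Receptors, channels and guidance molecules differed singly, and their counts stand beside 0.942% of all genes higher and 2.28% lower in both sections. Grik3, a kainate receptor subunit, stood at 44.6 CPM in the members and 17.5 CPM in the rest of the trained section and at 41.3 and 14.8 CPM in the untrained section, and was the only 1 of 15 ionotropic glutamate receptor genes 2-fold higher in both. The NMDA receptor subunit Grin2d was the only one 2-fold lower in both, at 4.46 against 15.4 and 5.72 against 14.7 CPM. Of 12 receptors for serotonin, acetylcholine, opioids and related ligands with enough UMIs, Sstr2 was higher and the serotonin receptor Htr2c lower, at 3.90 against 37.4 and 9.81 against 47.3 CPM. Of 26 axon guidance genes the secreted semaphorin Sema3e was higher, at 63.0 against 22.0 and 40.5 against 16.2 CPM, and 3 were lower, the semaphorin receptor Nrp2 at -1.84 and -1.67 on the log2 scale, the netrin relative Ntng1 at -1.89 and -1.71 and the Slit receptor Robo1 at -1.57 and -1.40. Of 31 potassium channel genes 1 was higher, Kcnh3, at 64.7 against 31.0 and 56.4 against 27.5 CPM. None of 11 GABA-A receptor subunits and none of 10 neurofilament and axon cytoskeleton genes passed 2-fold in both sections.

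RefSeq start sites were at hand for 11 of the 20 leading genes, and their 14 promoters (250 bases before to 50 after the start, GRCm38.p6) were searched on both strands for letters that T-box and CREB-type factors are known to bind, because Tbr1 is a T-box factor and Arc and Egr1 are activity genes. The T-box core AGGTGT was found in 1 of the 14, that of Dkkl1, and in 13.7% of all 32851 promoters, and the longer AGGTGTGA, which contains it, in none of the 14 and 1.28% of all. The cyclic AMP response element TGACGTCA was found in 1, Sstr2, and in 1.79% of all, and its shorter form TGACG, which lies within it, in 2, Sstr2 and Ipcef1, and in 20.8% of all. Also counted were GGGCGG, the GC box, in 8 of the 11, or in 8 of their 14 promoters, and 35.7% of all, and TATAAA, the TATA box, in none and 13.6% of all. A match of letters is a description and not a site of binding, and a window without them says only that the letters are absent there. The 4 promoters printed show the matches in capitals in 2 leading genes and in the rule gene Hs3st2, which holds both, and Rprm, the corticothalamic gene that differed most between the sections, which holds neither. They are chr7:45211834-45212133 (minus strand), chr11:113619077-113619376 (plus), chr7:121392046-121392345 (plus) and chr2:54085503-54085802 (minus), each written 5′ to 3′ along the gene.
Dkkl1: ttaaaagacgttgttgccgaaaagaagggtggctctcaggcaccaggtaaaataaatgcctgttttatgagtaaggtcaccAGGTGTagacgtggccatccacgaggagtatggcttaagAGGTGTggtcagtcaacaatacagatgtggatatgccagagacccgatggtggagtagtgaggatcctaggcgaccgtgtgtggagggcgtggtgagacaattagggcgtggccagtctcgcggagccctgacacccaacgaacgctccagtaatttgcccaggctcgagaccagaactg
Sstr2: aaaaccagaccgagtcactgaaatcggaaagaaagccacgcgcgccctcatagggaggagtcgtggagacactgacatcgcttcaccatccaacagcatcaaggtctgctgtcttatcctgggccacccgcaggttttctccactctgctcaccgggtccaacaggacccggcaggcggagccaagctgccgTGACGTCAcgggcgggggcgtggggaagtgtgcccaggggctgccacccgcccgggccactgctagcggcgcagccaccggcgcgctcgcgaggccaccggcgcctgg
Hs3st2: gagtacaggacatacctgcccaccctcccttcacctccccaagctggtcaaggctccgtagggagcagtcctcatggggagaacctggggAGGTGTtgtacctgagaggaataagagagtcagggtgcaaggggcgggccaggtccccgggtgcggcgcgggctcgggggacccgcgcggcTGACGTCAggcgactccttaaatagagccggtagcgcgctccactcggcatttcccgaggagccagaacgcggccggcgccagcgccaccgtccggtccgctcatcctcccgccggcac
Rprm: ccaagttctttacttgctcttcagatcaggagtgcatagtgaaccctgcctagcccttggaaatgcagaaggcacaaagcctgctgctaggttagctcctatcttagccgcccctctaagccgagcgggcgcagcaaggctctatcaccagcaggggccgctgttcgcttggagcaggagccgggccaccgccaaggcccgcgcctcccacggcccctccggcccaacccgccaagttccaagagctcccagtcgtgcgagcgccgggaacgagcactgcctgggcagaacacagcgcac

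Against the 150 lowest scoring spots of each section, the members were compared with the other end of the same score. These spots had high Cux2, Rasgrf2 and Lamp5 by construction, and 59 of the trained and 62 of the untrained spots had no other lowest scoring spot beside them. They were not upper cortex alone, since the summed level of the striatal list in them was 548 CPM in the trained and 222 CPM in the untrained section, against 144 and 158 CPM in the members. Of 3077 genes, 29 (0.942%) were at least 2-fold higher in the trained and 17 (0.552%) in the untrained members, 12 (0.39%) of them in both, and 23 (0.747%) and 14 (0.455%) were lower, 10 (0.325%) in both. With the rule genes left out, Ighm again led, at 164 against 6.95 CPM in the trained and 145 against 16.2 CPM in the untrained section, log2 ratios of 4.50 (3.70 to 5.58) and 3.14 (2.71 to 3.64). Rprm followed with log2 ratios of 2.92 and 2.17, and Hs3st4 with 2.69 and 2.01. Pcp4, a calmodulin-binding peptide abundant in layer 5 and 6 neurons, stood at 3501 against 1432 CPM and 2226 against 932 CPM. Of oligodendrocyte genes Mog passed 2-fold in both sections, at 106 against 35.4 and 128 against 58.4 CPM, and the list median was 1.11 and 0.90. Arc stood at 265 against 86.0 CPM, a log2 ratio of 1.62, in the trained section and at 246 against 124 CPM, 0.995, in the untrained section. None of 11 immediate early genes compared was 2-fold higher in both sections against these spots, with medians of 0.32 and 0.32.

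Lower in the members than in the lowest scoring spots were 10 genes, among them 1 of 9 inhibitory neuron genes compared, Vip, and Calb1 of the list for layers 2/3 and 4. Tac2, the neurokinin B precursor, stood at 8.92 against 136 CPM and 16.8 against 87.9 CPM, log2 ratios of -3.89 and -2.38. Calb1 stood at 35.1 against 275 and 44.1 against 203 CPM. The interneuron peptide Vip stood at 53.5 against 181 and 38.8 against 157 CPM. Hap1, which binds huntingtin, Gucy1a1, a guanylate cyclase subunit, and Synpr, a synaptic vesicle protein, had log2 ratios between -1.94 and -1.12.

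The members differed among themselves by depth in the cortex. Those below the centre of the arc, 58 trained and 44 untrained, were compared with those above it, 54 and 69. Of 2444 genes 91 (3.72%) were at least 1.5-fold higher in the lower members of the trained and 56 (2.29%) in those of the untrained section, 29 (1.19%) in both, and 47 (1.92%) and 44 (1.8%) were lower, 15 (0.614%) in both. Cplx3 stood at 213 CPM in the lower and 15.2 CPM in the upper members of the trained section, a log2 ratio of 3.75 (2.93 to 4.85), and at 148 and 28.5 CPM in the untrained section, 2.37 (1.80 to 2.99). Ighm stood at 218 against 114 and 198 against 104 CPM, and the myelin gene Mobp at 989 against 359 and 918 against 488 CPM. Higher in the upper members was Pvalb, the calcium buffer of fast-spiking interneurons, at 367 against 216 and 323 against 149.9 CPM, and so was Rgs4, which regulates G protein signalling, at 230.3 against 109.5 and 186 against 107 CPM. Of the rule genes Tbr1 stood at 236 CPM in the lower and 248 CPM in the upper members of the trained section and at 188 and 191 CPM in the untrained section, with log2 intervals of -0.39 to 0.24 and -0.35 to 0.30. Egr1 was as close, with log2 intervals of -0.24 to 0.25 and -0.08 to 0.36.

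Few genes differed between the hemispheres in the same direction in both sections, while depth did. Members of the left side had medians of 7387 UMIs in the trained and 9534 in the untrained section, and those of the right side 16138 and 22109. Of 3141 genes, 23 (0.732%) were at least 1.5-fold higher on the left in the trained and 9 (0.287%) in the untrained section, and 57 (1.81%) and 41 (1.31%) were lower, but only 3 (0.0955%) were higher and none was lower in both. Higher in both were Ptgds, a prostaglandin synthase of the meninges and glia, Hba-a2, a haemoglobin gene, and Ttr, the thyroid hormone carrier of the choroid plexus, the last at 1492 against 343 CPM and 2782 against 1772 CPM. Arc stood at 223 CPM on the left and 293 CPM on the right of the trained section and at 228 and 254 CPM in the untrained section. Depth moved with side, and 1 trained member held 71727 CPM of the choroid plexus list, which includes Ttr. The part of depth and of this spot in these ratios was not tested.

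Members with no member beside them were lower in some of the leading genes. Compared were these 24 and 18 spots with the 100 and 101 members that had at least 2 member neighbours. The spots alone held 170127 UMIs in the trained and 276899 in the untrained section, with medians of 5571 and 13291 per spot. Medians of the grouped members were 13877 and 16419. Low levels in the spots alone thus carry a large counting error, and the part of depth was not tested. Of 2761 genes, 290 (10.5%) were at least 1.5-fold lower in the spots alone in the trained and 140 (5.07%) in the untrained section, 36 (1.3%) in both, and 100 (3.62%) and 63 (2.28%) were higher, 4 (0.145%) in both. Ighm stood at 64.7 CPM in the spots alone and 182 CPM in the grouped members of the trained section, and at 39.7 and 160.1 CPM in the untrained section. Nxph3 stood at 17.6 against 88.8 and 25.3 against 66.2 CPM. Cplx3 stood at 94.0 against 84.4 CPM in the trained section and 36.1 against 73.8 CPM in the untrained section, so its order differed between them. Gja1, the astrocyte connexin, was one of the 4 that were higher alone, at 170.5 against 77.9 and 116 against 67.3 CPM. Of the rule genes, Trbc2 stood at 118 against 235 CPM in the trained section, with a log2 interval of -1.73 to -0.35, and in the untrained section its interval included 0. Myl4 had log2 intervals of -1.31 to -0.08 and -1.58 to -0.19, and Fezf2 of -0.49 to 1.34 and 0.08 to 1.49. Without members that had fewer than 2 member neighbours, 7 of the 9 corticothalamic genes were 2-fold higher in both sections.

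The design compared a trained with an untrained mouse. Of 3575 genes with at least 200 UMIs in the members, 192 (5.37%) were at least 1.5-fold higher in the trained members and 87 (2.43%) lower, and over the same genes the rest gave 269 (7.52%) and 91 (2.55%). With the median ratio of the members, 0.10 on the log2 scale, set to 0, the split of the members became 97 and 142. After subtraction of the ratio of the rest, 23 genes (0.643%) were at least 1.5-fold higher and 35 (0.979%) lower. The spread of the members' ratios was 0.34 (SD over genes), where counting noise alone gave 0.15.

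The largest ratios were those found across the sections. Nme7, a nucleoside diphosphate kinase gene, stood at 199.5 CPM in the trained and 29.4 CPM in the untrained members, a log2 ratio of 2.75, and at 3.40 in the rest. Bc1, a small brain cytoplasmic RNA, stood at 20.6 and 466 CPM, -4.48, and at -3.39 in the rest. Lrrc17 stood at 9.48 and 153 CPM, -3.98, against -3.38 in the rest, and Nme7 and Lrrc17 both overlap genes of the opposite strand. Tmsb10, which binds actin monomers, stood at 2486 and 814 CPM, 1.61, against 1.47 in the rest. Of 12 mitochondrially encoded genes compared 8 were at least 1.5-fold lower in the trained members, beside 2.43% of all genes, with a median of -0.85 and of -0.61 in the rest. No gene of this paragraph had a sign in the members that differed from that in the rest.

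Of 6 corticothalamic genes compared, the ratio in the members exceeded that in the rest by 1.5-fold in 2, Rprm and Nxph3, beside 0.643% of all genes. The lowest member scored 0.455 in the trained and 0.324 in the untrained section, and the median member 0.642 and 0.505. The part of this unequal cut in the ratios was not tested. Rprm was higher in the trained members, 236 against 133 CPM, a log2 ratio of 0.82 (0.61 to 1.04), and 0.01 in the rest, a difference of 0.81 (0.57 to 1.05). Its median over single members was 176 CPM in the trained and 115 CPM in the untrained section, and without the 10 richest members of each section it stood at 189 and 115 CPM. Nxph3 stood at 81.4 and 58.0 CPM, 0.49 (0.14 to 0.83), against -0.14 in the rest. The other corticothalamic genes with enough UMIs were closer, with log2 ratios in the members of 0.18 for Hs3st4, 0.14 for Tle4, 0.10 for Garnl3 and -0.14 for Crym, and counting intervals that included 0.

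Sst, the precursor of the interneuron peptide somatostatin, stood at 275 CPM in the trained and 587 CPM in the untrained members, a log2 ratio of -1.09 (-1.25 to -0.95), where the rest gave 0.37. Against the rest of its own section the log2 ratio of the members was -0.18 in the trained and 1.28 in the untrained section, so the members stood near the rest in one section and above it in the other. Its UMIs were concentrated, with 42.4% and 47.4% in the 10 richest members, and without these it stood at 171 and 346 CPM. The median member held 149.5 and 255 CPM, and the richest 5414 and 7115 CPM. In all spots at the centre of the arc, members or not, Sst stood at 356 and 569 CPM. The order of the sections was thus the same by these 4 readings.

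After subtraction of the ratio of the rest, 6 of 8 inhibitory neuron genes compared were at least 1.5-fold lower, beside 0.979% of all genes. The list median was -0.16 in the members and 0.70 in the rest. Of 8 oligodendrocyte genes 3 were lower in the same way. For Gad2, Slc32a1 and Penk the larger ratio was that of the rest. Gad2, which makes GABA, stood at 63.5 and 71.1 CPM in the members, a log2 ratio of -0.16 (-0.52 to 0.19), and at 181 and 89.1 CPM in the rest, 1.02. Slc32a1, the vesicular transporter of GABA, gave -0.16 in the members and 1.07 in the rest. Penk, the enkephalin precursor, gave -0.39 (-0.80 to 0.00) and 1.83. The striatal list moved with them, with a summed level of 487 CPM in the rest of the trained section and 172 CPM in that of the untrained section, and 144 and 158 CPM in the members. Which tissue the 2 section planes held was not tested here. Enpp2, a lysophospholipase abundant in choroid plexus, stood at 172 and 269.7 CPM in the members, -0.65, and at -1.60 in the rest.

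Haemoglobin genes were higher in the trained members, Hba-a1 at 173 against 91.9 CPM and Hba-a2 at 119 against 74.8 CPM. They were held by few members, with 68.1% and 50.2% of the Hba-a1 UMIs in 10 spots, and without those spots Hba-a1 stood at 59.0 and 49.2 CPM. Their ratio in the members exceeded that in the rest by 0.90 and 0.75 on the log2 scale, and this difference was -0.073 and -0.086 when members with fewer than 2 member neighbours were left out. These 2 genes are near copies of each other and may share reads.

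Activity genes differed singly between the sections. Arc was at 265 CPM in the trained and 246 CPM in the untrained members, a log2 ratio of 0.11 (-0.07 to 0.28), against 0.06 in the rest. Egr1 was at 410.2 and 409.8 CPM, a log2 ratio of 0.00 (-0.14 to 0.14), and Homer1, a synaptic scaffold, at 129.9 and 130.3 CPM. Fos gave 0.27 (-0.09 to 0.63) and Jun 0.26 (-0.10 to 0.62). Of 13 immediate early genes compared, Rheb, a small GTPase, was 1.5-fold higher, at 0.82 in the members and 0.69 in the rest, and Junb 1.5-fold lower, at -0.62 and -0.63, beside 5.37% of all genes higher and 2.43% lower. Nr4a1, an orphan nuclear receptor, stood at -0.46 (-0.72 to -0.20) in the members and -0.18 in the rest. The median of the 13 was 0.00 in the members and 0.06 in the rest, where all genes had medians of 0.10 and 0.08. With 1 mouse per group, these values give no measure of how much such genes vary between mice of the same group.

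**Figure D5:**
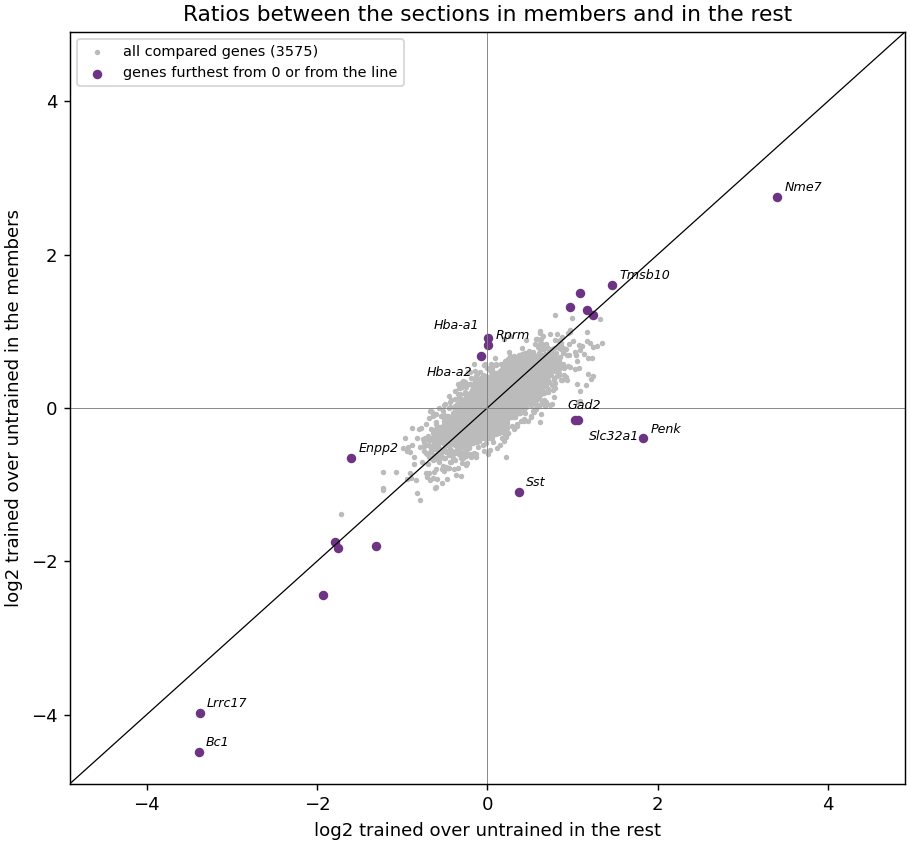
Log2 ratio of the trained over the untrained section in the members (vertical axis) against the same ratio in the rest (horizontal axis) for 3575 genes; the diagonal marks equal ratios, and named genes are furthest from 0 or from the diagonal. Most genes lie near the diagonal, Rprm, Enpp2 and the haemoglobin genes above it, and Sst, Penk, Gad2 and Slc32a1 below it.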

How the data were processed

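Spots under tissue of 1 frozen section per mouse were profiled with Visium. Per the study's methods, the authors trimmed the reads and ran Space Ranger 2.0.0 on the 10x mm10 reference, and deposited raw UMI counts per gene and spot for 32285 genes, with array positions. The authors' run also deposited a spatial score per gene (Moran's I) and summed counts, which equalled the matrix sums for all 20513 and 21498 genes listed. Image scale factors were not used.

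Spots were scored and 150 per section taken as described. Members and gene lists were chosen with earlier results of these data known. Counts were pooled over spots and given as CPM, and log2 ratios were taken with 0.5 UMIs added to each side. Genes entered a comparison with at least 200 UMIs (within sections in each section, between sections over the members of both, 100 for parts of the members) and were counted at 2-fold within and 1.5-fold between sections. The named genes were the 20 highest and 10 lowest over the rest, the 10 highest and 6 lowest over the lowest scoring spots, each by the weaker section, and the 6 highest and 6 lowest between sections and 4 of each after subtraction of the rest, besides rule genes and genes of the lists. Some of these genes are not reported here. Intervals are exact Poisson for CPM, exact conditional binomial for ratios and Clopper-Pearson for shares, at 95%, and cover counting error only. Shares were compared after thinning to 2000 UMIs (seed 7). No doublet caller was run, since a spot holds several cells, and no test, since each group had 1 section. The ratios and intervals were tested on simulated counts, and the score was not. The software was numpy 2.4.6, pandas 2.3.3, scipy 1.17.1 and matplotlib 3.10.9 under Python 3.11.15. Gene positions are from GENCODE on GRCm38/mm10 and promoters from RefSeq on GRCm38.p6.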

Additional observations from a re-analysis of the deposited data

Results flagged for a closer look

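Sst stood apart by opposite signs. Its log2 ratio of trained over untrained was -1.09 in the members and 0.37 in the rest, and its log2 ratio of members over rest was -0.18 in the trained and 1.28 in the untrained section. Hba-a2 had 0.67 in the members and -0.074 in the rest for trained over untrained. Drd1, a dopamine receptor gene, had a ratio of members over rest of -1.08 in the trained and 0.95 in the untrained section. Sulf1, a sulfatase that acts on heparan sulfate, had 0.94 and -0.86. These differences were not tested. Of the spots with fewer than 2000 UMIs, which were not used, 8 in the trained and 6 in the untrained section scored at or above the lowest member.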

How the results depend on the processing

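Of the values for named genes, 1733 moved by less than the limit set, 265 moved by more and 4 changed sign, and of the values of members over the rest 1079 of 1080 kept their sign. The members themselves depended on depth, since after thinning to 2000 UMIs before scoring 82 trained and 64 untrained members were shared. With that score the neighbours that were members were 25.6% and 21.6%, the corticothalamic list had 3 genes higher, layers 2/3 and 4 had 0 and 0, layer 5 had 1 and layer 6b 1 lower, the lowest scoring comparison gave 5 and 3, and Oxt in the untrained section turned to 0.49. With 100 members the neighbours were 31.1% and 30.9%, layers 2/3 and 4 had 2 lower and 15 genes were higher after subtraction of the rest, and with 200 members the trained neighbours were 42.5%. With at least 5000 UMIs per spot they were 43.6% and 19 genes were higher than in the lowest scoring spots. Without Tbr1 the neighbours were 35.0% and 33.2%, without Trbc2 33.5% and 34.2%, and in the untrained section 36.6% without Myl4 and 36.6% without Igfbp6. Higher than in the lowest scoring spots were 19 genes without Fezf2, 26 without Igfbp6, and 25 when lowest scoring spots with fewer than 2 neighbours of their kind were left out, an alternative chosen after seeing the data. Members with at least 2 member neighbours gave 2 lower genes in layers 2/3 and 4, and after subtraction of the rest Hba-a1 at -0.073 and Hba-a2 at -0.086. All spots at the centre of the arc, also chosen after seeing the data, gave Hba-a1 at -0.043, and without the 10 richest members of each section the ratio between the members was 0.26 for Hba-a1 and 0.13 for Hba-a2. A rest matched to the members in depth, likewise added, gave 52 genes higher in both sections. Spots weighted equally gave 37 higher after subtraction. Mitochondrial genes left out of the totals gave 105 higher and 134 lower between sections and 56 lower after subtraction. Centring on the median gave 97 and 142.

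The UMI minimum moved the counts over all compared genes most, while some laminar list counts moved under the thinned score alone. A minimum of 50 gave 160 higher and 502 lower than the rest, 2 lower in layers 2/3 and 4, 48 and 62 against the lowest scoring spots, 785 and 360 between sections, and 270.0 and 278 after subtraction. No minimum gave 2211 and 774, 2, 388 and 652, 3264 and 2808, and 2790.0 and 2577. A minimum of 1000 gave 39 and 54, 0 and 1 in layer 5, 3 in the corticothalamic list, 0 in layer 6b, 1 and 0, 26 and 26, and 2 and 4. Adding 5 UMIs gave 123 lower than the rest and 1 lower in layer 5. The left side alone gave 158 lower, 1 lower in layer 5, 1 higher in layer 6b, 1 and 1 against the lowest scoring spots, 69 and 42 between sections and 19 lower after subtraction, and the right side alone 117 lower, 0 and 1 in layer 5 and 6 lower than in the lowest scoring spots. The causes were not tested, except that fewer or more genes entered under another minimum. No paired analysis was possible because each group had 1 section.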
